A study of Mus musculus with 6 samples.

Results

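Collagen chain genes encode the alpha chains that wind into the helical rods of collagen molecules. The deposited table held 44 genes whose symbol is Col, a number, a and a number, out of 30777 genes. They were grouped as 11 fibrillar chains, 10 chains of basement membranes and 23 chains of other types, and 38 of them passed the filter on low counts and were tested. The data are 6 RNA-seq libraries of colon tissue from BALB/c mice. The 5-Fu group (3 libraries) came from mice given 5-fluorouracil, a pyrimidine analogue used in chemotherapy that injures the gut lining, and the 5-Fu+BBR group (3 libraries) from mice given 5-fluorouracil and berberine, a plant alkaloid. Every library therefore carries 5-fluorouracil. The design asked which genes were associated with berberine, and the labels give no doses, times or ages and do not say whether a library is 1 animal, so p-values measure the spread between these samples, which may be technical.

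Fibrillar collagens such as types I, III and V form the cables of the intestinal submucosa and lamina propria and are made mainly by fibroblasts and smooth muscle cells. Type IV collagen builds the sheet under epithelium, endothelium and muscle, with types XV and XVIII at its tissue face. Type VI forms beaded filaments at the border of both. Chains are hydroxylated, folded and glycosylated in the endoplasmic reticulum, trimmed outside the cell and cross-linked by lysyl oxidases. Matrix metalloproteinases cut them, and integrins and discoidin domain receptors bind them.

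Upstream sequence from RefSeq (GRCm38.p6, the C57BL/6J reference, whereas the mice were BALB/c) was matched for 35 of the 44 chains. Shown here, 5′ to 3′ on the plus strand, are the 250 bases before the RefSeq start of Col3a1 and Col5a1, which followed the same order over the libraries, and of Col24a1, a minor fibrillar chain whose groups did not overlap. The last sequence is the whole gap of 71 bases between the starts of Col4a4 and Col4a3, a pair of type IV chains read away from each other. Capitals mark a match to CCAAT or TATAAA on either strand. None of the 4 windows overlaps an exon of the GENCODE vM21 annotation.
Col3a1, chr1:45311288-45311537: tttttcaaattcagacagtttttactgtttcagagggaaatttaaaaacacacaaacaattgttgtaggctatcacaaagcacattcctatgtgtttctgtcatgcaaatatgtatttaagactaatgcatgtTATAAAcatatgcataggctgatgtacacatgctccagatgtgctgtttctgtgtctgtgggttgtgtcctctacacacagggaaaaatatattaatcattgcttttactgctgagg
Col5a1, chr2:27886175-27886424: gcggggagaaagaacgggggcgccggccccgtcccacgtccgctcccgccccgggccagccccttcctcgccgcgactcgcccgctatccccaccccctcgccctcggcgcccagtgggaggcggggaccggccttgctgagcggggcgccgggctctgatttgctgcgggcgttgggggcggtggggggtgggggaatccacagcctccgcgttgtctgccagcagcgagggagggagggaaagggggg
Col24a1, chr3:145292222-145292471: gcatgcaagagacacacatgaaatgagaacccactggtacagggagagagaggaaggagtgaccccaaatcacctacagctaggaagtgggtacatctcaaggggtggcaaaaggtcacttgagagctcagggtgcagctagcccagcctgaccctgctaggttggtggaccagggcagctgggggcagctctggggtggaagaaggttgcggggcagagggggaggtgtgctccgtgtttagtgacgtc
Col4a4 to Col4a3, chr1:82586850-82586920: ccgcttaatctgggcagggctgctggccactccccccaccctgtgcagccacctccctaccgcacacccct

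TATAAA (reverse complement TTTATA) was found in Col3a1 at positions -117 to -112 from the start, and the other 3 windows held neither motif. Over the upstream windows, CCAAT (reverse complement ATTGG) was present in 12 of 35 collagen chains (34.3%) and in 34.5% of 27025 promoters of the same length. TATAAA was present in 5 of 35 chains (14.3%) and in 13.0% of all promoters. The 9 basement membrane chains with a window had CCAAT in 6, the 8 fibrillar chains in 3 and the 18 other chains in 3. A match is a description of letters and not a binding site. The start-to-start arrangement recurs in type IV: Col4a1 and Col4a2 overlap by 22 bases at their starts on chromosome 8, and 1308 bases separate Col4a6 and Col4a5 on chromosome X.

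The abundant fibrillar chains and type VI chains had higher means in 5-Fu+BBR, whereas Col4a1, Col4a2 and Col18a1 of basement membranes differed by 0.08, 0.02 and -0.21 on the log2 scale. In the fibrillar chains Col3a1, Col1a1, Col1a2 and Col5a1 the berberine libraries lay within the range of the 5-Fu libraries. The clearest differences were in minor chains. None of the 38 tested chains had an adjusted p under 0.05 in edgeR's quasi-likelihood test, in either direction, where 0.0597% of all 20101 genes tested were called higher and 0.0149% lower. At an unadjusted p under 0.05, 9 chains were higher (23.7%) and 0 were lower, against 9.48% and 6.08% of all genes. The fitted difference was positive in 34 of 38 chains (50.7% of all genes), and its median was 0.44 on the log2 scale (0.01 over all genes). limma-voom and limma-trend also called 0 chains at an adjusted p under 0.05, whereas the DESeq2 Wald test called 5 higher (Col27a1, Col4a5, Col8a2, Col24a1 and Col9a3), in a fit that called 4.37% of all genes higher. In whole tissue, fewer cells of a type and less RNA per cell cannot be told apart.

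The 38 chains that passed the filter did not pass through 1 group alone: 36 met the count minimum in all 6 libraries, and Col4a6 and Col11a1 met it in 1 to 3 libraries of each group. The 6 untested chains were Col2a1 (cartilage), Col6a6, Col9a1, Col10a1 (growth plate), Col19a1 and Col26a1, all at or under 0.0559 FPKM, a level per kilobase of transcript and per unit of sequencing depth. Col9a1, Col10a1 and Col19a1 were listed at 0 in every 5-Fu library.

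Summed over the 44 chains, FPKM was 173.6, 333.7 and 94.0 in 5-Fu replicates 1 to 3 and 301.3, 244.4 and 214.7 in 5-Fu+BBR replicates 1 to 3. The 5-Fu libraries thus held both the highest and the lowest sum, and the groups overlapped. Fibrillar chains made up 42.6%, 54.2% and 32.4% of that sum in 5-Fu and 51.8%, 49.1% and 48.8% in 5-Fu+BBR. The share of basement membrane chains was 25.3%, 26.2% and 32.9% in 5-Fu and 22.8%, 22.2% and 21.6% in 5-Fu+BBR. Other types supplied the remainder, between 19.5% and 34.7%. In the library with the lowest sum, 5-Fu replicate 3, the fibrillar share was at its lowest and the basement membrane share at its highest.

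**Figure D1:**
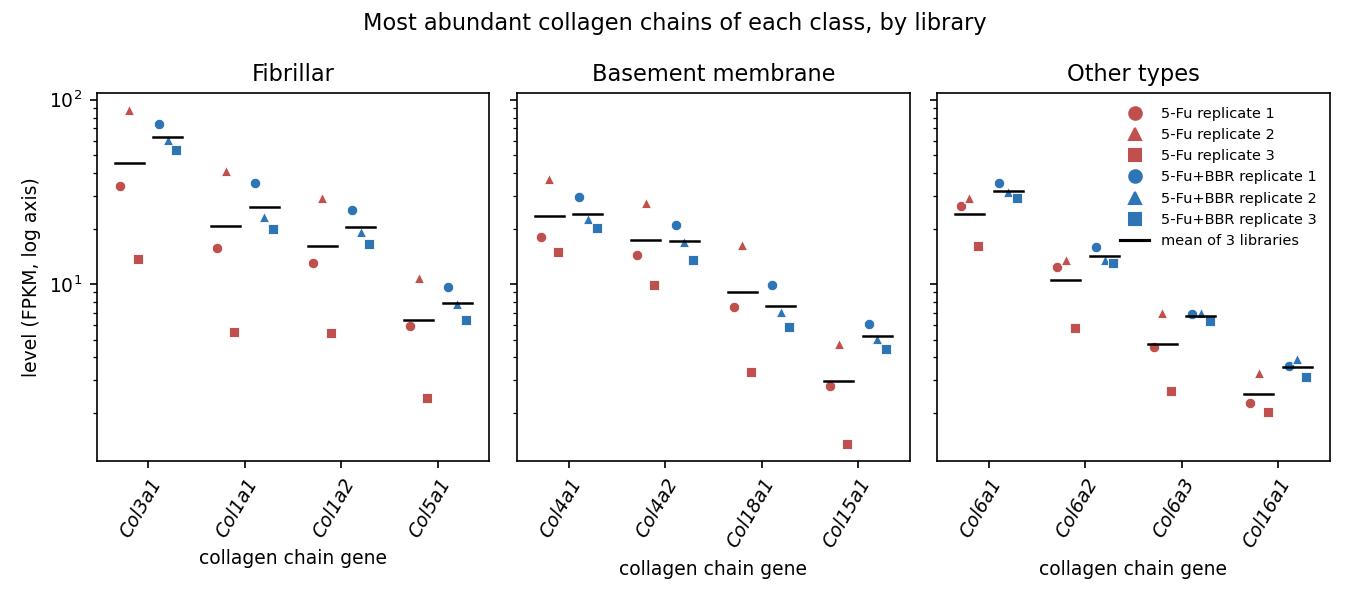
Level (FPKM, log axis) of the 4 most abundant chains of each class in the 6 libraries, red for 5-Fu and blue for 5-Fu+BBR, with a marker shape per replicate and a black line at the mean of 3 libraries. In every fibrillar chain shown, 5-Fu replicate 2 is the highest point and 5-Fu replicate 3 the lowest, with the 5-Fu+BBR libraries between them.

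Among fibrillar chains, Col3a1 (chr1:45311538-45349706, plus strand), the single chain of type III collagen, had the highest mean FPKM of all 44 chains. Its level was 33.9, 87.7 and 13.7 FPKM in 5-Fu and 73.9, 60.5 and 53.5 FPKM in 5-Fu+BBR. All 3 berberine libraries lay inside the range of the 5-Fu libraries. Group means were 45.1 ± 38.2 and 62.6 ± 10.3 FPKM (SD, n = 3 each), and the log2 fold change was 0.53 ± 0.60 (SE), adjusted p = 0.722.

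Type I collagen is built from Col1a1 and Col1a2. Col1a1 (chr11:94936224-94953042, plus strand) was at 15.8, 40.9 and 5.46 FPKM in 5-Fu and 35.4, 23.1 and 19.8 FPKM in 5-Fu+BBR. Between its highest and lowest 5-Fu library lay a ratio of 7.50, against 1.79 in 5-Fu+BBR, and the difference between groups was 0.39 ± 0.67 on the log2 scale (adjusted p = 0.828). Col1a2 (chr6:4504814-4541544, plus strand) was at 13.1, 29.4 and 5.42 FPKM in 5-Fu and 25.3, 19.2 and 16.4 FPKM in 5-Fu+BBR. Its groups overlapped in the same order of libraries, with a log2 fold change of 0.40 ± 0.55 and an adjusted p of 0.782.

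Col5a1 and Col5a2 encode type V collagen, which starts and limits the width of type I fibrils. Col5a1 was at 5.90, 10.7 and 2.39 FPKM in 5-Fu and 9.63, 7.78 and 6.38 FPKM in 5-Fu+BBR, a log2 fold change of 0.36 ± 0.48 (adjusted p = 0.770). Col5a2 repeated the order, with 3.99, 9.03 and 1.96 FPKM against 8.32, 5.77 and 5.48 FPKM, and was 0.43 ± 0.51 higher on the log2 scale. Col5a3, a less common type V chain, was at 0.704, 2.00 and 0.620 FPKM in 5-Fu and 2.07, 1.83 and 1.67 FPKM in 5-Fu+BBR (0.78 ± 0.41, adjusted p = 0.408).

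Some pairs of abundant chains varied less in proportion than in level. The ratio of Col1a1 to Col1a2 in FPKM ran from 1.01 to 1.40 over the 6 libraries and that of Col3a1 to Col1a1 from 2.08 to 2.71. Within type IV, Col4a1 over Col4a2 ran from 1.25 to 1.499 and the minor pair Col4a3 over Col4a4 from 0.890 to 1.72. Within type VI, Col6a1 over Col6a2 ran from 2.15 to 2.76 and Col6a1 over Col6a3 from 4.199 to 6.05. The proportion of Col1a1 to Col6a1 varied more: it was 0.596, 1.40 and 0.342 in 5-Fu and 1.004, 0.730 and 0.678 in 5-Fu+BBR. FPKM ratios compare levels per length and do not give the make-up of the protein.

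The order of the 5-Fu libraries was shared widely. Replicate 2 was the highest and replicate 3 the lowest 5-Fu library in 22 of 38 chains (57.9%), against 30.9% of all genes. That order held in 8 of the 10 fibrillar chains tested. It also held in 17 of the 20 chains with a mean of at least 1 FPKM, against 33.7% of genes of that level. The median ratio of the highest to the lowest library was 2.52 in 5-Fu and 1.51 in 5-Fu+BBR over the chains (fibrillar 4.55 and 1.53), against 1.46 and 1.35 over all genes. In 12 of 38 chains all 3 berberine libraries lay inside the 5-Fu range, and so they did in 4302 of all 20101 genes tested.

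Single 5-Fu libraries decided the results of the abundant chains. Without 5-Fu replicate 2, 17 chains were higher at an unadjusted p under 0.05 (9.98% of all genes) and 1 passed at an adjusted p under 0.05, Col5a3 (1.44 on the log2 scale, adjusted p = 0.0392, with 0.698% of all genes called higher). Col3a1 was then 1.38 higher, Col1a1 1.29, Col1a2 1.12 and Col4a1 0.52. Without 5-Fu replicate 3, 7 chains were higher (10.6% of all genes), and the same chains stood at 0.12, -0.04, 0.01 and -0.12. The median of the fibrillar class was 1.14 without replicate 2 and 0.10 without replicate 3. Replicate 1 of the berberine group, taken alone against the 3 5-Fu libraries, left 2 chains at an unadjusted p under 0.05, Col9a3 and Col27a1 (3.56% of all genes). That setting assumes that the lone library varies like the others.

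Col27a1 and Col24a1 are minor fibrillar chains known from cartilage and bone. Col27a1 (chr4:63214004-63333749, plus strand) was at 0.393, 0.583 and 0.349 FPKM in 5-Fu and 0.810, 0.957 and 0.789 FPKM in 5-Fu+BBR. Its groups did not overlap, and with 0.95 ± 0.20 on the log2 scale it had the smallest p of the 38 chains (adjusted p = 0.118). Col24a1 was at 0.0527, 0.115 and 0.0705 FPKM in 5-Fu and 0.205, 0.274 and 0.172 FPKM in 5-Fu+BBR, which did not overlap either. Its estimated counts were 27, 67 and 35 against 115, 134 and 86, and its log2 fold change was 1.44 ± 0.38 (adjusted p = 0.160). The other 2 tested fibrillar chains, both of type XI, went opposite ways without passing: Col11a2 was 0.37 ± 0.39 higher and Col11a1 -0.73 ± 0.85, the latter at no more than 0.0766 FPKM in any library.

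**Figure D2:**
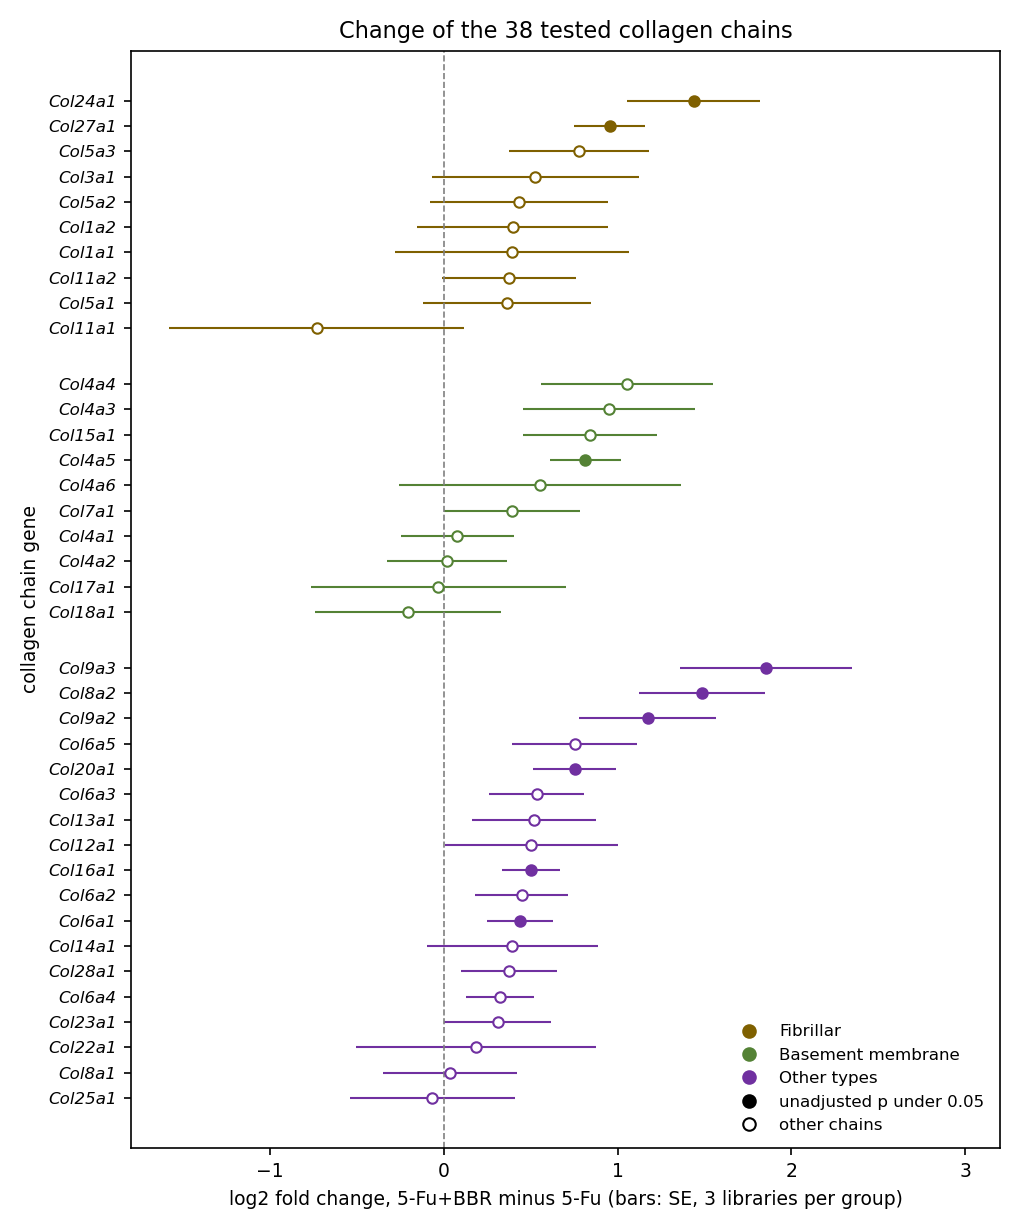
Log2 fold change (5-Fu+BBR minus 5-Fu) of the 38 tested chains with bars of 1 SE from 3 libraries per group, coloured by class; filled points have an unadjusted p under 0.05. The 9 filled points all lie right of 0, and the bars of Col3a1, Col1a1, Col1a2, Col5a1, Col4a1 and Col4a2 cross 0.

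The basement membrane class had a median log2 fold change of 0.47, with 8 of 10 chains positive (50.7% of all genes). At an unadjusted p under 0.05 the class had 1 of 10 chains higher, near the 9.48% of all genes, and 0 lower (6.08%). The differences of its 3 most abundant chains lay between -0.21 and 0.08, with larger SEs. Col4a1 (chr8:11198423-11312826, minus strand), which with Col4a2 forms the common type IV network, was at 17.9, 37.2 and 14.8 FPKM in 5-Fu and 29.5, 22.6 and 20.2 FPKM in 5-Fu+BBR. That gave 0.08 ± 0.32 on the log2 scale (adjusted p = 0.936). Col4a2 (chr8:11312805-11449287, plus strand) was at 14.3, 27.4 and 9.93 FPKM in 5-Fu and 20.9, 16.8 and 13.4 FPKM in 5-Fu+BBR, or 0.02 ± 0.34. For both, 5-Fu replicate 2 was the highest of all 6 libraries and the groups overlapped. Their annotated starts overlap on opposite strands, and no source used here says whether the counting used strand.

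Col18a1 and Col15a1, the multiplexins, anchor the basement membrane to the tissue around it. Col18a1, whose C-terminal fragment is endostatin, was at 7.54, 16.3 and 3.34 FPKM in 5-Fu and 9.88, 7.07 and 5.82 FPKM in 5-Fu+BBR. It was the one chain above a mean of 1 FPKM with a negative difference, -0.21 ± 0.54 (adjusted p = 0.893), and the berberine libraries lay inside the 5-Fu range. Col15a1 was at 2.81, 4.74 and 1.36 FPKM in 5-Fu and 6.10, 5.03 and 4.45 FPKM in 5-Fu+BBR. Its groups overlapped by 5-Fu replicate 2 alone, with 0.84 ± 0.38 on the log2 scale (adjusted p = 0.359).

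Col4a5 (chrX:141475385-141689234, plus strand), a chain of the specialised type IV networks of kidney and smooth muscle basement membranes, stood apart from Col4a1 and Col4a2. Its level was 0.851, 0.957 and 1.10 FPKM in 5-Fu and 1.37, 2.00 and 1.81 FPKM in 5-Fu+BBR. No 5-Fu library reached the lowest berberine library, and the log2 fold change was 0.81 ± 0.21 (adjusted p = 0.151). It was higher at an unadjusted p under 0.05 in 17 of 18 alternative settings, the most of the 9 chains with such a p. These settings share libraries. The remaining setting held 5-Fu+BBR replicate 1 without 5-Fu+BBR replicates 2 and 3, where the level of Col4a5 was highest. Kidney markers summed to 16.2 FPKM in 5-Fu+BBR replicate 1 and to 150.8 and 143.1 in replicates 2 and 3. Their part in the difference of Col4a5 was not tested.

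Col4a3 and Col4a4 join Col4a5 in the glomerular network of the kidney. Col4a3 was at 0.0483, 0.0614 and 0.0475 FPKM in 5-Fu and 0.0417, 0.107 and 0.156 FPKM in 5-Fu+BBR (0.95 ± 0.49, adjusted p = 0.399). Col4a4 was at 0.0281, 0.0556 and 0.0443 FPKM against 0.0415, 0.121 and 0.113 FPKM (1.06 ± 0.50, adjusted p = 0.355). In both, 5-Fu+BBR replicates 2 and 3 were the highest libraries and 5-Fu+BBR replicate 1 lay at or below most of the 5-Fu libraries. The summed level of 12 kidney markers had the same split: 14.3 to 15.5 FPKM in 5-Fu, 16.2 in 5-Fu+BBR replicate 1, and 150.8 and 143.1 in 5-Fu+BBR replicates 2 and 3. The part of kidney transcripts in these results was not tested.

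The remaining basement membrane chains were Col7a1 of the anchoring fibrils, Col17a1 of hemidesmosomes and Col4a6. All had mean levels at or under 0.280 FPKM and log2 fold changes of 0.39 ± 0.39, -0.03 ± 0.73 and 0.55 ± 0.81.

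The class of other types had the largest share of low p-values. At an unadjusted p under 0.05, 6 of 18 tested chains were higher and 0 lower, against 9.48% and 6.08% of all genes. Differences were positive in 17 of 18 (50.7% of all genes), and the median was 0.47. Col6a1 (chr10:76708792-76726168, minus strand), the alpha 1 chain of type VI, had the second highest mean FPKM of the 44 chains. It was not second in every library, since Col1a1 (40.95 FPKM) and Col4a1 (37.23 FPKM) also exceeded it in 5-Fu replicate 2. Col6a1 was at 26.5, 29.3 and 16.0 FPKM in 5-Fu and 35.3, 31.7 and 29.2 FPKM in 5-Fu+BBR. The FPKM values of the groups touched, at 29.3 and 29.2, while CPM, the counts scaled by TMM (136.6, 143.1 and 89.6 against 190.3, 160.2 and 150.2) did not overlap. Its log2 fold change was 0.44 ± 0.19 (adjusted p = 0.318), and it had an unadjusted p under 0.05 in 8 of 18 alternative settings.

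Col6a2 and Col6a3, the partners of Col6a1, had differences of like size. Col6a2 was at 12.3, 13.5 and 5.78 FPKM in 5-Fu and 15.9, 13.4 and 13.0 FPKM in 5-Fu+BBR, or 0.45 ± 0.27 (adjusted p = 0.473). Col6a3 was at 4.55, 6.97 and 2.64 FPKM against 6.92, 6.94 and 6.30 FPKM, or 0.53 ± 0.27 (adjusted p = 0.404). In FPKM both pairs of groups overlapped through 5-Fu replicate 2. The lower type VI chains Col6a4 and Col6a5 were 0.32 ± 0.20 and 0.75 ± 0.36 higher, and all 5 tested type VI chains had positive differences.

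Col16a1, Col20a1, Col9a2 and Col9a3 belong to the collagens that lie on fibrils or interrupt their helices. Col16a1 was at 2.27, 3.27 and 2.02 FPKM in 5-Fu and 3.58, 3.93 and 3.14 FPKM in 5-Fu+BBR, a log2 fold change of 0.50 ± 0.17 (adjusted p = 0.227). Its groups overlapped in FPKM and were apart in CPM, where the nearest libraries were at 24.7 and 25.0. Col20a1 was at 1.01, 0.992 and 1.42 FPKM against 1.93, 2.29 and 1.64 FPKM, which did not overlap (0.75 ± 0.24, adjusted p = 0.213). A same-strand transcript, 9230112E08Rik, overlaps Col20a1 and was at 1.60 to 2.55 FPKM, so reads of the pair may have been split between them. That transcript itself differed by -0.06 on the log2 scale.

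Type IX chains decorate the fibrils of cartilage, and their cartilage partner Col2a1 was at 0 in 4 of 6 libraries. Col9a2 was at 0.326, 0.172 and 0.211 FPKM in 5-Fu and 0.365, 0.540 and 0.724 FPKM in 5-Fu+BBR (1.17 ± 0.40, adjusted p = 0.228). Col9a3 had the largest difference of all tested chains, with 0.0444, 0.121 and 0.0747 FPKM in 5-Fu and 0.366, 0.354 and 0.174 FPKM in 5-Fu+BBR. Its estimated counts were 12, 36 and 20 against 104, 89 and 45, and its log2 fold change was 1.86 ± 0.49 (adjusted p = 0.160). In neither chain did the groups overlap. The third type IX chain, Col9a1, was not tested.

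Col8a2, a short network-forming chain of vessel walls and the cornea, was at 0.122, 0.0907 and 0.124 FPKM in 5-Fu and 0.238, 0.403 and 0.328 FPKM in 5-Fu+BBR. These groups were also apart, at 1.49 ± 0.36 on the log2 scale (adjusted p = 0.146). Its partner Col8a1 differed by 0.03 ± 0.39 on the log2 scale, and its groups overlapped. Col12a1 and Col14a1, which bind the surface of type I fibrils, were at 0.50 ± 0.50 and 0.39 ± 0.49. The transmembrane chains Col13a1, Col23a1 and Col25a1 stood at 0.52 ± 0.35, 0.31 ± 0.31 and -0.07 ± 0.48. Col28a1 and Col22a1 were at 0.37 ± 0.28 and 0.18 ± 0.69.

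**Figure D3:**
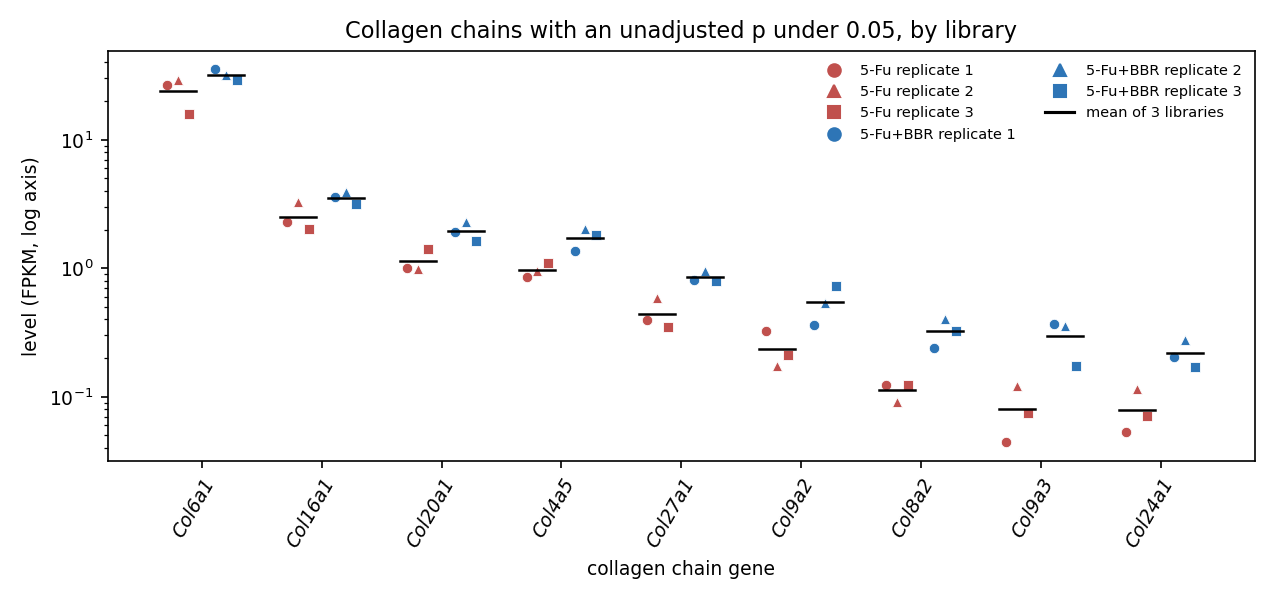
Level (FPKM, log axis) of the 9 chains with an unadjusted p under 0.05 in the 6 libraries, red for 5-Fu and blue for 5-Fu+BBR, with a marker shape per replicate and a black line at the mean of 3 libraries. All 3 berberine libraries lie above all 3 5-Fu libraries except in Col6a1 and Col16a1, which overlap in FPKM.

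Counted over the chains, the groups did not overlap in 11 of 38 in CPM (all higher in 5-Fu+BBR; 12.3% of all genes were apart and higher, 9.68% apart and lower). In FPKM, which lacks that scaling, the number was 8 of 38 (11.5% of all genes). The 20 chains with a mean of at least 1 FPKM had a median log2 fold change of 0.44, with 19 positive (43.5% of genes of that level) and 4 at an unadjusted p under 0.05 (9.23%). The 18 tested chains under 1 FPKM had 15 positive, 5 higher at an unadjusted p under 0.05 and a median of 0.45. Over all genes at any level, 50.7% were positive and 9.48% higher at that p. Among all genes under 1 FPKM the positive share was above 50.7%, since it was 43.5% at 1 FPKM or more.

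Genes that assemble collagen had a lower median than the chains. Of 32 tested assembly genes, 21 were positive (65.6%, against 50.7% of all genes), and the median was 0.11. At an unadjusted p under 0.05, 2 were higher (6.25%) and 1 lower, near the 9.48% and 6.08% of all genes. Serpinh1 (HSP47), the collagen chaperone of the endoplasmic reticulum, was at 14.2, 24.0 and 10.1 FPKM in 5-Fu and 29.4, 26.3 and 25.0 FPKM in 5-Fu+BBR. All its berberine libraries were above all 5-Fu libraries, at 0.76 ± 0.26 on the log2 scale (adjusted p = 0.239). P3h2, a prolyl 3-hydroxylase, was the lower one: 2.64, 1.75 and 2.32 FPKM against 1.08, 0.819 and 1.003 FPKM (-1.21 ± 0.25, adjusted p = 0.113). P4ha1, a catalytic subunit of prolyl 4-hydroxylase, was at 0.44 ± 0.19 (adjusted p = 0.325). Lox, the cross-linking lysyl oxidase, was at 1.88, 6.20 and 1.71 FPKM against 4.95, 1.503 and 1.37 FPKM (-0.26 ± 0.72). Its difference was negative, though within each group its libraries had the order of Col3a1.

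Partners of fibrils were positive in 23 of 23 (50.7% of all genes), with a median of 0.49. At an unadjusted p under 0.05, 7 were higher (9.48% of all genes) and 0 lower (6.08%). Sparc, a collagen-binding matricellular protein, was at 40.0, 90.3 and 16.6 FPKM in 5-Fu and 80.5, 62.9 and 53.2 FPKM in 5-Fu+BBR, the order of Col3a1. Its difference was 0.47 ± 0.55 (adjusted p = 0.732). Tnxb, a tenascin of fibril spacing, had the smallest p of this list (0.56 ± 0.12, adjusted p = 0.126), followed by the small leucine-rich proteins Ogn (0.98 ± 0.30, adjusted p = 0.215) and Aspn (0.61 ± 0.22). Fn1, fibronectin, was at 21.3, 32.6 and 12.3 FPKM against 35.6, 34.2 and 29.7 FPKM (0.61 ± 0.28, adjusted p = 0.345).

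Of 21 basement membrane partners, 12 were positive, with 1 higher and 2 lower at an unadjusted p under 0.05 and a median of 0.11. These counts were near the shares of all genes (50.7% positive, 9.48% higher, 6.08% lower). Lama5, a laminin chain of epithelial basement membranes, was among the lower genes (-0.54 ± 0.17, adjusted p = 0.218). Lama3, another epithelial laminin chain, was at -0.85 ± 0.39, and Lamb1, the common beta chain, at 0.37 ± 0.34.

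Of the 10 collagen receptors, 8 were positive (50.7% of all genes), with a median of 0.44. At an unadjusted p under 0.05, 4 were higher (9.48% of all genes). Itga1, the alpha subunit of the main collagen-binding integrin of smooth muscle and fibroblasts, was 0.43 ± 0.13 higher (adjusted p = 0.196) and Ddr2, a receptor for fibrillar collagen, 0.52 ± 0.18 (adjusted p = 0.245). Ddr1, its epithelial relative, was at -0.10 ± 0.13.

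Genes of collagen breakdown, a list of proteases and their inhibitors together, had a negative median, -0.22, with 8 of 18 positive (50.7% of all genes). At an unadjusted p under 0.05, 1 was higher (9.48% of all genes), an inhibitor, and 3 were lower (6.08%). The median of the list therefore does not describe the proteases alone. Mmp7, matrilysin, an epithelial protease, was at 20.8, 15.8 and 12.3 FPKM in 5-Fu and 6.29, 2.56 and 1.04 FPKM in 5-Fu+BBR. No berberine library reached the lowest 5-Fu library, at -2.27 ± 0.64 (adjusted p = 0.199). The membrane protease Mmp15 was at -0.41 ± 0.15 and the inhibitor Timp3 at 0.42 ± 0.15. Timp1 was at 4.15, 14.7 and 1.99 FPKM against 3.38, 2.60 and 3.05 FPKM (-1.15 ± 0.64), with 5-Fu replicate 2 as the highest library by far. The gelatinase Mmp2 and its activator Mmp14 were at 0.17 ± 0.38 and -0.19 ± 0.18.

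Among genes of profibrotic signals and their control, 15 of 19 were positive (50.7% of all genes), with a median of 0.26. At an unadjusted p under 0.05, 6 were higher and 2 lower (9.48% and 6.08% of all genes). The 6 include Smad7, an inhibitor of TGF-beta signalling (0.47 ± 0.19, adjusted p = 0.289). Tgfb1, the growth factor best known for inducing collagen genes, was at 2.62, 4.33 and 2.46 FPKM in 5-Fu and 4.44, 4.43 and 4.59 FPKM in 5-Fu+BBR. Its groups were apart by a narrow margin, at 0.53 ± 0.19 (adjusted p = 0.246). Ltbp1, which stores latent TGF-beta in the matrix, was at 0.63 ± 0.13 (adjusted p = 0.119) and Tgfb3 at 0.77 ± 0.24 (adjusted p = 0.201). Smad3, a transducer of that signal, was at -0.55 ± 0.14 (adjusted p = 0.151). Over all 123 tested partners, 21 were higher (17.1%) and 8 lower at an unadjusted p under 0.05, against 9.48% and 6.08% of all genes. Of the 123, 87 were positive (50.7% of all genes) and 0 passed adjustment.

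**Figure D4:**
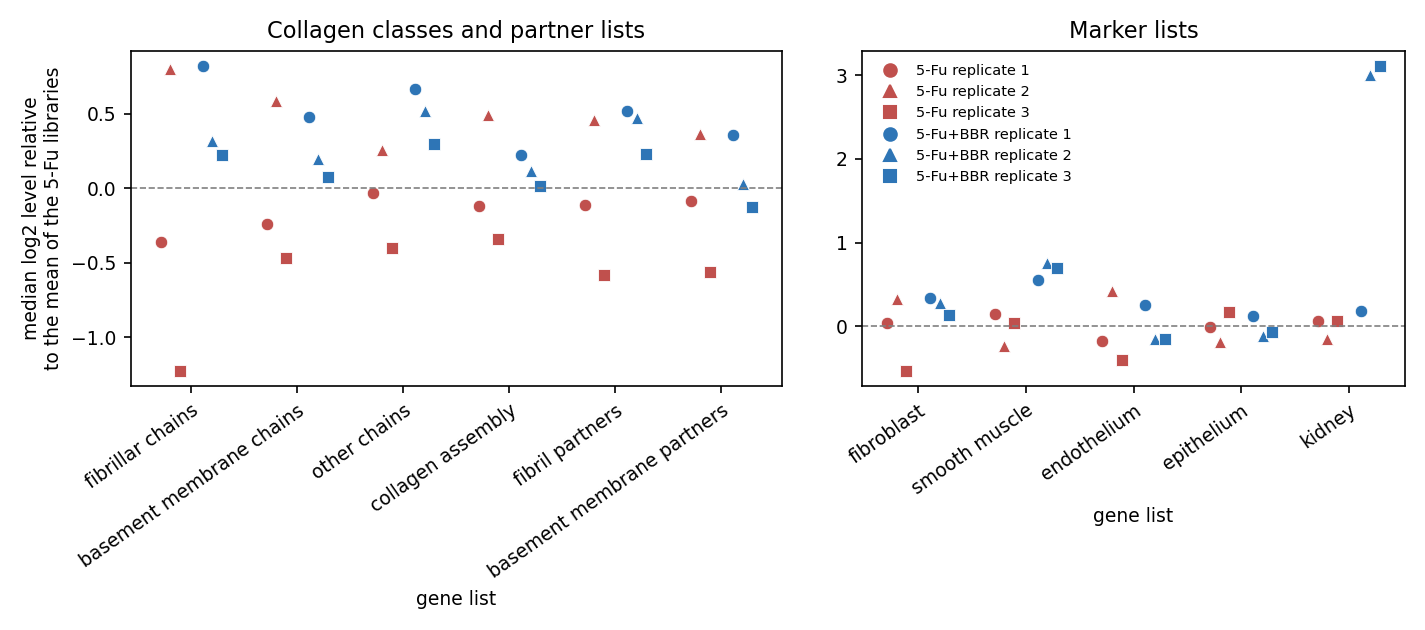
Median log2 level of each gene list in each library relative to the mean of the 5-Fu libraries; left, the 3 collagen classes and 3 partner lists, right, 5 marker lists, with red for 5-Fu, blue for 5-Fu+BBR and a marker shape per replicate. Fibrillar chains spread from -1.23 to 0.80 over the 5-Fu libraries, and kidney markers stand near 3 in 5-Fu+BBR replicates 2 and 3 alone.

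Markers of the cell types in the tissue were read beside these results, and their part was not tested; 9.48% of all genes were higher at an unadjusted p under 0.05 in the same fit. Epithelial markers, which fit the label of colon, summed to 5776 to 6312 FPKM in 5-Fu and 5666 to 6119 in 5-Fu+BBR. Fibroblast markers summed to 298.9, 356.2 and 274.2 FPKM in 5-Fu and 345.5, 349.3 and 268.4 in 5-Fu+BBR, with 3 of 12 higher at an unadjusted p under 0.05; Dcn, Lum and Dpt are also fibril partners. Of these 12, 8 had the order of the fibrillar chains in 5-Fu, as did 8 of 10 endothelial markers (13.3 to 27.4 FPKM against 17.6 to 22.0). Smooth muscle markers had another pattern, with that order in 0 of 10: their sum was 769.1 to 1018 FPKM in 5-Fu and 1387 to 1683 in 5-Fu+BBR, and 8 of 10 were higher at an unadjusted p under 0.05. Adipocyte markers (20.8 to 29.5 against 58.3 to 100.7 FPKM, 9 of 10 higher at that p, Lep at 0 in all 5-Fu libraries) and leukocyte markers (234.1 to 266.8 against 351.6 to 453.0 FPKM, 6 of 10 higher at that p) also had higher sums in 5-Fu+BBR. Lyz2 supplied most of the leukocyte sum, and S100a8, Mpo and Itgam of that list had negative differences (-2.89, -1.04 and -0.14). Of 7 pericyte, 8 enteric glia and 7 mesothelium markers tested, 1, 1 and 0 were higher at that p and 1, 0 and 1 lower (6.08% of all genes). Their sums were 22.4 to 29.5, 2.68 to 3.58 and 2.76 to 6.64 FPKM in 5-Fu. In 5-Fu+BBR the sums were 23.0 to 27.7, 3.51 to 4.67 and 2.71 to 5.99 FPKM. Total estimated counts were 53824752 to 63831168 per library.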

How the data were processed

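RNA was extracted from colon tissue, selected by oligo(dT) and sequenced from strand-marked libraries, per the labels' protocols. The submitters' processing notes list StringTie 1.3.4d, HISAT2 2.0.4, cutadapt 1.9, edgeR, DESeq2, UMI-tools and build GRCm38 without saying what each did. The annotation version and use of molecular identifiers in counting are not given in the sources used here. The deposited table gives the authors' estimated counts per library, already whole numbers, and the authors' FPKM. Counts were filtered (filterByExpr, 20101 of 30777 genes), scaled (TMM) and fitted in edgeR 4.0.16 (R 4.3.3) with the robust quasi-likelihood test, two-sided, no covariates, with Benjamini-Hochberg adjustment over all genes tested; the biological coefficient of variation was 0.296. Libraries of 1 group differed by chi-square values of 82.2 to 154 per gene, so none repeats another. The steps were tested on simulated data. Alternatives used limma 3.58.1 and DESeq2 1.42.0.

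The members, lists and tests were chosen with earlier results of these data known. Named by rule were the 4 most abundant chains of each class and chains with an adjusted p under 0.05. So were chains with an unadjusted p under 0.05 and groups apart. Partners named by rule were up to 3 per list of smallest p with at least 1 FPKM. Serpinh1, Lox, Sparc, Fn1, Lamb1, Mmp2, Mmp14, Timp1 and Tgfb1 were also named by rule. Other chains and Smad7 were named after their values were seen. SE is the fold change divided by the square root of the test's F. Of the listed partners, Kera and Mmp1a were not used here. Some genes of the lists are not reported here by name. Figures were drawn with Python 3.11.15 and matplotlib 3.10.9.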

Additional observations from a re-analysis of the deposited data

How the results depend on the processing

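The count of 0 chains past an adjusted p of 0.05 became 5 higher with the DESeq2 Wald test and ranged from 0 to 1 when each library was left out. The 9 chains higher at an unadjusted p under 0.05 became 4 and 3 with limma-trend on log2(FPKM + 1) and log2(FPKM + 0.1), where 20 chains were tested and 9.2% and 8.95% of all genes were higher, 2 with 5-Fu+BBR replicate 1 alone, and ranged from 6 to 17 over the leave-one-out fits. The 21 higher and 8 lower partners became 13 higher of 90 tested with log2(FPKM + 0.1), where 8.95% of all genes were higher. With log2(FPKM + 1) and no filter, 11 of 124 were higher (7.0% of all genes). With a library left out, they ranged from 7 to 43 higher and from 4 to 12 lower. The share of all genes higher in the fits with a library left out ranged from 5.7% to 10.6%. The median of all chains ranged from 0.27 to 0.78 over those fits, and that of the other types was 0.20 with log2(FPKM + 1) and no filter. For these changes, other than the fewer chains, partners and samples named, the cause was not tested. With the replicate number as a block, 14 chains were higher (9.89% of all genes). Numbers were not taken as pairs, since deviations of same-numbered libraries correlated at 0.03, 0.07 and 0.21. Signs turned for Col4a2 with library totals only (-0.00514), for Col18a1 with the replicate block (0.00409), and with 5-Fu+BBR replicate 1 alone for Col18a1 (0.21), Lox (0.68) and Ddr1 (0.0319). With a library left out, log2 fold changes ranged from -0.13 to 0.52 (Col4a1), -0.22 to 0.46 (Col4a2), -0.57 to 0.47 (Col18a1), -0.0394 to 1.29 (Col1a1), -1.17 to 0.52 (Lox), -0.36 to 0.00774 (Mmp14), -0.18 to 0.00379 (Ddr1) and -0.13 to 0.68 (Mmp2). Of 799 settings of the 45 named genes, 765 kept direction and side of the adjusted p threshold, 15 newly passed and 19 turned sign. No named gene passed that threshold in the main fit, so keeping its side meant staying uncalled, and no call could be lost. Of the 9 chains, Col9a3 had the smallest counts, 12 to 104 per library.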
